A study of Mus musculus with 6 samples.

Results

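Hepatocyte growth factor (HGF) and its receptor MET form a paracrine signal that promotes hepatocyte division after loss of liver tissue. HGF is made as an inactive single chain, mostly by stellate and endothelial cells, and is stored in the matrix. It binds MET productively only after a serine protease has cut it, and Kunitz-type inhibitors on the cell surface hold those proteases in check. Described here are 9 genes of this system, of 18193 genes on the array that a probe set names alone, which were listed by name for their roles and not for their values. They are the ligand Hgf, the receptor Met, the activating proteases Hgfac and Hpn, the plasminogen activators Plau and Plat with the receptor Plaur, and the inhibitors Spint1 and Spint2. All probe sets that name 1 of these genes were taken, 15 in all, out of 34958 probe sets that name 1 gene. Of the 9 genes, 5 (Hgf, Met, Hgfac, Hpn and Spint2) had a probe set bright enough to be tested, among 8554 genes tested in all.

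Expression was measured on Affymetrix whole-genome mouse arrays in RNA from whole liver of C57BL/6 mice, 18 hours after partial hepatectomy, the removal of most of the liver. All mice carried Socs3 fl/fl, so that Cre can delete Socs3, a feedback inhibitor of JAK and STAT3 signalling. The Cre plus group (n = 3 arrays, A, B and C) also carried Alb-Cre+, a Cre recombinase driven by the albumin promoter and active in hepatocytes, and the Cre minus group (n = 3 arrays, A, B and C) were littermates that were Alb-Cre-. Age and sex of these mice are not given in the sources used here. No array from liver before surgery, or from mice with Cre but without floxed Socs3, was analysed here, so neither a difference that preceded surgery nor an effect of Cre can be told apart from loss of Socs3. The labels do not say whether each array is a separate mouse, so p-values measure the spread between arrays, which may be partly technical.

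The values are log2 probe set values, on which a difference of 1 is a doubling, and array values are always listed in the order A, B, C. Socs3 was lower in all 3 Cre plus arrays, at 7.44, 6.69 and 7.47 against 9.09, 9.30 and 9.24 in Cre minus, with limma's adjusted p = 0.0732 over all genes (0.0166 without Cre plus B). Cre plus B lay closer to the other group, with correlations over the 8554 genes of 0.991 to 0.993 with the Cre minus arrays. With Cre plus A and C its correlations were 0.9867 to 0.9893, and A and C were hardly closer to each other, at 0.9896. Each member is therefore given with and without Cre plus B, although Socs3 was lowest in B. Because B was picked from these same values, leaving it out can by itself widen the differences between groups. Of the 8554 genes tested, 1268 passed an unadjusted p under 0.05 in limma with all arrays and 1635 without B. The fits without B describe the arrays and add no support for a difference. The 9 hepatocyte markers measured, all above the filter, had a summed level of 17.79 to 17.83 in Cre minus and 17.74 to 17.83 in Cre plus (log2 of the sum, which the brightest of them dominate). Of the 9, 4 had higher and 5 lower values, and 1 was lower at an unadjusted p under 0.05, the urea cycle enzyme Cps1 at -0.50 ± 0.18 (SE). All 11 tested Kupffer cell and macrophage markers had lower values in Cre plus, as did 11 of 12 sinusoidal and vascular endothelial markers. At that threshold 7 and 5 of them were lower, beside 8.21% of all genes tested. None of these markers passed after adjustment.

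No member passed an adjusted p under 0.05. The adjusted p-values of the 5 tested members ran from 0.240 to 0.928 in limma, and 0.0234% of all genes tested passed that threshold. At an unadjusted p under 0.05, 2 of the 5 passed, Hgfac and Hpn, both lower in Cre plus, beside 14.8% of all genes tested in either direction and 8.21% in the lower direction. Among the 8 tested probe sets 0 passed after adjustment and the same 2 passed unadjusted, beside 0.0129% and 13.3% of all probe sets tested. Hgfac and Hpn, both made mainly by hepatocytes, thus had lower means, though neither passed after adjustment. On their brightest probe sets the ligand Hgf, the receptor Met and the inhibitor Spint2 had mean differences smaller than their standard errors. For Met the difference depended on the array and on the probe set. Without Cre plus B, 3 of the 5 passed the unadjusted threshold (Met, Hgfac and Hpn), beside 19.1% of all genes tested.

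**Figure D1:**
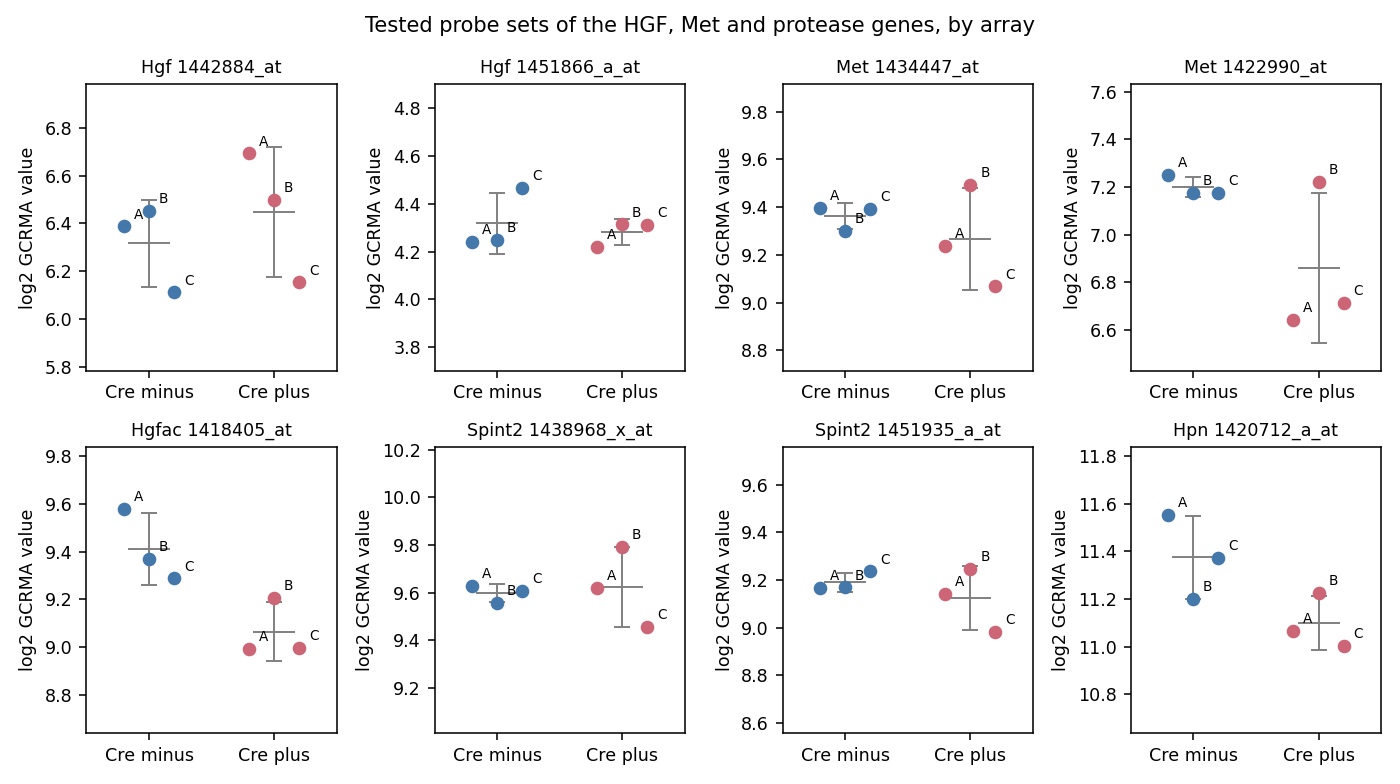
Log2 GCRMA value (y axis, each panel spanning 1.2 units) of the 8 tested probe sets in the 3 Cre minus and 3 Cre plus arrays, lettered A to C, with group mean and SD as grey lines. Hgfac is the gene whose groups do not overlap, and Met 1422990_at shows Cre plus B at 7.22 with Cre plus A and C at 6.64 and 6.71.

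Hgfac encodes HGF activator, a protease that the liver secretes into plasma as a precursor and that cuts single-chain HGF once it has itself been activated. Its single probe set read 9.58, 9.37 and 9.29 in Cre minus arrays and 8.99, 9.21 and 9.0 in Cre plus arrays. All 3 Cre plus values lay below all 3 Cre minus values, and Cre plus B came closest, 0.08 below the lowest Cre minus array. The mean went from 9.41 ± 0.15 to 9.07 ± 0.12 (SD, n = 3 each), a log2 difference of -0.35 ± 0.10 (SE). On the linear scale Cre plus was 0.786 times Cre minus, with a 95% interval of 0.659 to 0.939. The unadjusted p was 0.0161 and limma's adjusted p 0.240, so the difference was not called. The exact permutation p was 0.1, the smallest that 3 against 3 arrays can give. Hgfac was the 1 tested member of 5 with groups apart, beside 11.9% of all genes tested whose groups did not overlap and were lower in Cre plus. Without Cre plus B the difference was -0.42 ± 0.10, with limma's adjusted p = 0.145. With any single array left out it stayed between -0.42 and -0.26, and without Cre plus A the unadjusted p was 0.0544.

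Hpn encodes hepsin, a serine protease anchored in the hepatocyte membrane that can also convert HGF to its active form. It read 11.55, 11.20 and 11.37 in Cre minus arrays and 11.07, 11.23 and 11.01 in Cre plus. Here the groups overlapped by one pair of arrays, with Cre plus B just above Cre minus B. The mean went from 11.37 ± 0.18 to 11.10 ± 0.11, a difference of -0.28 ± 0.11 (SE), or 0.826 times the Cre minus level with a 95% interval of 0.685 to 0.997. The unadjusted p was 0.0475, limma's adjusted p was 0.331 and the exact permutation p was 0.2. The unadjusted p lay close to the threshold and passed over it when any of 4 arrays was left out, to 0.129 (Cre minus A), 0.101 (Cre minus C), 0.116 (Cre plus A) and 0.127 (Cre plus C). Without Cre plus B the difference was -0.34 ± 0.12 (adjusted p = 0.230). The part of the hepatocyte marker levels given above in the values of Hgfac and Hpn was not tested.

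In both Hgfac and Hpn, B was the highest of the Cre plus arrays and Cre minus A the highest of all 6. Genes with the most similar profile were found by the root mean square difference between centred log2 values over the 6 arrays. For Hgfac these were Scly (0.022), which releases selenium from selenocysteine, Plpp3 (0.023), a lipid phosphate phosphatase, and Abhd14b (0.037). For Hpn they were the nuclear receptor Nr2f6 (0.030), Cox19 (0.036), a factor for cytochrome oxidase assembly, and Fbxo8 (0.036). Their differences between groups ran from -0.37 for Abhd14b to -0.26 for Cox19, and 0 of the 6 passed after adjustment. These genes were picked for likeness, so their direction adds nothing to that of the members.

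The stretches upstream of Hgfac and Hpn are shown because both genes had a lower mean in Cre plus, although neither passed after adjustment. They are the 250 bases before the RefSeq start in build GRCm38.p6, read 5′ to 3′ on the gene's strand. Capitals mark matches, on either strand, to motifs of factors that act in hepatocytes or in the acute phase response: TTCNNNGAA (STAT), TTGCNNAA (C/EBP), GTTAAT (the core of HNF1 sites), GGGCGG (Sp1) and TGANTCA (AP-1). Hgfac lies on the plus strand (chr5:35041259-35041508). Hpn has starts on the minus strand at chr7:31115327-31115576 (upstream start) and chr7:31110998-31111247 (downstream start).
Hgfac: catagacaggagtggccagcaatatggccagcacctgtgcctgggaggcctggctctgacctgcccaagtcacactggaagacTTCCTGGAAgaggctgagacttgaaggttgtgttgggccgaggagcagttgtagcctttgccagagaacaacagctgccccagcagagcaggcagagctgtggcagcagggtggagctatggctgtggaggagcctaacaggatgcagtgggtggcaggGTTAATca
Hpn upstream start: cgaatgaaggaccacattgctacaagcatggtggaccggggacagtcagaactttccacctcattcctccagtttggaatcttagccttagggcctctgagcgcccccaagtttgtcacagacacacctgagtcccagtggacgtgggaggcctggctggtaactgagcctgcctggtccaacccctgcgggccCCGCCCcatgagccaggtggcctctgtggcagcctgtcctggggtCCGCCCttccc
Hpn downstream start: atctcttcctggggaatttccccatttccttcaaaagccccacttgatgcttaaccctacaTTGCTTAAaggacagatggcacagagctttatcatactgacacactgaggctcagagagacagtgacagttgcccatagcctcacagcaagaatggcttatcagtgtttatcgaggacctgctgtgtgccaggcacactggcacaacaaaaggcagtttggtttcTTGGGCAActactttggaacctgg

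The Hgfac stretch holds 1 STAT match, 167 bases before the start, and 1 HNF1 core 8 bases before it. A STAT match is in 7.02% of the 32851 stretches of this length in the table and an HNF1 core in 6.43%. The upstream Hpn stretch holds 2 Sp1 matches and the downstream one 2 C/EBP matches, motifs found in 32.7% and 9.56% of stretches. Hgfac and Hpn share none of the 5 motifs in these windows. Of the 9 genes, 7 have an entry in the table, with 9 stretches between them, and the STAT motif is in 1 of the 9. A match of letters is a description of the sequence and does not show that a factor binds there.

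Met encodes the receptor tyrosine kinase for HGF, which in liver is found mainly on hepatocytes. Its brightest probe set (1434447_at) read 9.40, 9.30 and 9.39 in Cre minus arrays and 9.24, 9.49 and 9.07 in Cre plus. Cre plus B was the highest of all 6 arrays and Cre plus A and C the lowest, so the groups overlapped. The means were 9.36 ± 0.05 and 9.27 ± 0.21, a difference of -0.10 ± 0.12 (SE), with limma's adjusted p = 0.725 and an exact permutation p of 0.6. The 95% interval ran from 0.768 to 1.14 times the Cre minus level. The second probe set (1422990_at) read 7.25, 7.17 and 7.17 in Cre minus and 6.64, 7.22 and 6.71 in Cre plus. Here Cre plus B sat among the Cre minus arrays, while A and C were 0.56 and 0.48 below the Cre minus mean. The difference was -0.34 ± 0.16, with an unadjusted p = 0.0792 and limma's adjusted p = 0.428 over all probe sets.

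The Met difference depended on which Cre plus array was left out. Without B the brightest probe set had -0.21 ± 0.08, with an unadjusted p = 0.0477 in the gene fit and an adjusted p = 0.256, and the dimmer one had -0.52 ± 0.06, with limma's adjusted p = 0.0826. Neither passed after adjustment. With C left out in place of B, the brightest probe set had a difference of 0.0013 ± 0.10 and the dimmer one -0.27 ± 0.18. SD among the 3 Cre plus arrays was 0.21 and 0.31 on the 2 probe sets, against 0.05 and 0.04 among Cre minus. The 250 bases before the start of Met, on the plus strand of chr6:17463707-17463956 in GRCm38.p6, are given for comparison with the proteases, with the same motifs in capitals.
Met: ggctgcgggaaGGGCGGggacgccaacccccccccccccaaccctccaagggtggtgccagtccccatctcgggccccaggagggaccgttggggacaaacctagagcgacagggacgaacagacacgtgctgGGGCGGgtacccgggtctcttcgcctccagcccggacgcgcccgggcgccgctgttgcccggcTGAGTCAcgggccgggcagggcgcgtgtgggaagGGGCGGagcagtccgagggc

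This stretch is 74.0% G and C, holds 3 Sp1 matches and 1 AP-1 match, and has no match to the STAT, C/EBP or HNF1 letters. An AP-1 match is in 6.75% of stretches. The Hgfac stretch is 58.4% G and C, with 1 CpG against 24 in that of Met.

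**Figure D2:**
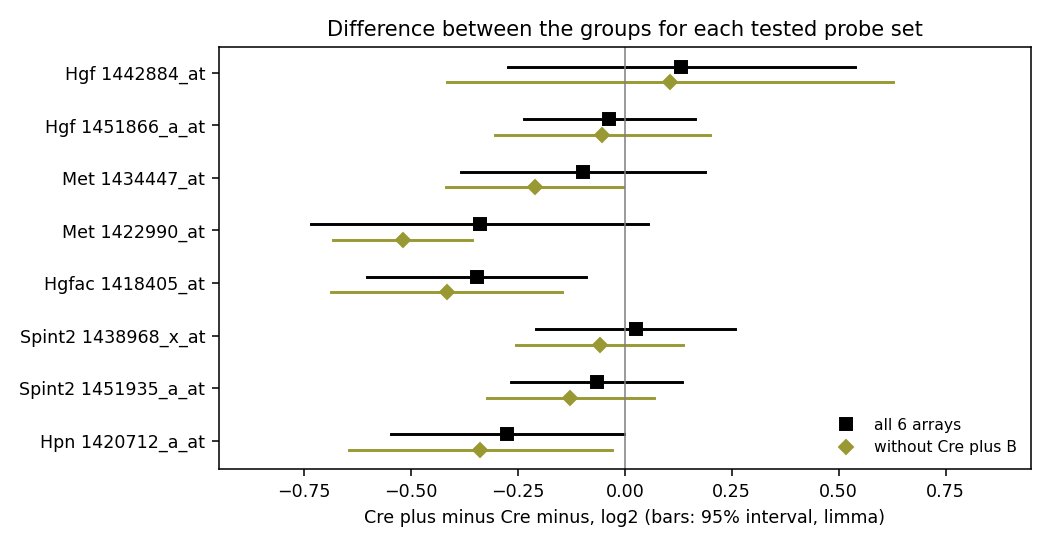
Difference between the groups (x axis, Cre plus minus Cre minus, log2) for each of the 8 tested probe sets, with limma's 95% interval, from all 6 arrays (black squares) and without Cre plus B (olive diamonds). Without Cre plus B the difference of Met 1422990_at goes from -0.34 to -0.52, while both Hgf probe sets stay with intervals across 0.

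Hgf is the ligand, and in liver its message comes mainly from non-parenchymal cells. The brightest of its 3 probe sets (1442884_at) read 6.39, 6.45 and 6.11 in Cre minus arrays and 6.69, 6.50 and 6.15 in Cre plus. The groups overlapped, with C the lowest array of each group. The means were 6.32 ± 0.18 and 6.45 ± 0.27, a difference of 0.13 ± 0.16 (SE), with limma's adjusted p = 0.739 and an exact permutation p of 0.4. The 95% interval allowed 0.830 to 1.45 times the Cre minus level, so differences within that range could not be told from none with these arrays. Another probe set (1451866_a_at) stayed between 4.22 and 4.47 in all arrays, with a difference of -0.04 ± 0.08 (adjusted p = 0.873). The third (1425379_at), at 2.89 to 3.17, missed the filter of a log2 value over 4 in at least 3 arrays and was not tested. Without Cre plus B the differences were 0.11 ± 0.20 and -0.05 ± 0.10.

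Whole liver RNA does not separate the cells that make Hgf from those that respond to it, and fewer cells of a type and less RNA per cell cannot be told apart. Stellate cell and fibroblast markers, 13 of 15 bright, had a summed level of 11.75 to 11.83 in Cre minus and 11.83 to 12.03 in Cre plus. Of the 13, 7 had higher and 6 lower values, with Pdgfra at 0.47 ± 0.16 and Rgs5 at 0.50 ± 0.11, although the kept probe sets of Rgs5 had opposite signs. Endothelial markers had 11.51 to 11.69 against 11.19 to 11.49, with the Fc receptor Fcgr2b at -0.54 ± 0.09 and the receptor Tek at -0.31 ± 0.11. Lyve1, the 1 endothelial marker of 12 with a higher value in Cre plus, had 0.91 ± 0.56. Kupffer cell and macrophage markers had 12.11 to 12.24 against 11.64 to 11.94, with C1qa at -0.39 ± 0.07. The part of these shifts in the Hgf values was not tested.

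The inhibitor Spint2, also called HAI-2, is a membrane protein with Kunitz domains that blocks hepsin and HGF activator. Its probe sets were 1438968_x_at, at 9.63, 9.56 and 9.61 in Cre minus arrays and 9.62, 9.79 and 9.46 in Cre plus, and 1451935_a_at, at 9.17, 9.17 and 9.24 against 9.14, 9.25 and 8.98. On both, Cre plus B was the highest array and Cre plus C the lowest, with the Cre minus arrays between them. The differences were 0.03 ± 0.09 and -0.07 ± 0.08, with adjusted p-values of 0.928 in limma's gene fit and 0.746 in its probe set fit. On the brighter probe set the 95% interval was 0.867 to 1.20 times the Cre minus level. In the probe set fit without Cre plus B the differences were -0.06 ± 0.07 and -0.13 ± 0.07.

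The other inhibitor and the plasminogen activator genes lay near the bottom of the scale. Spint1, or HAI-1, which inhibits HGF activator at the cell surface, was between 2.25 and 2.28 in all 6 arrays. Plau, the urokinase that makes plasmin and has been reported to cut HGF, was at 2.68 to 2.70 on 1 probe set and at 2.61 to 2.67 on the other. Plaur, the receptor that holds urokinase at the cell surface, was at 1.91 to 1.92. The array-to-array range of these probe sets was at most 0.06, so the values carry little signal and no difference was tested.

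Plat, the tissue-type plasminogen activator, came closest to the filter. Its brighter probe set (1415806_at) read 3.89, 3.93 and 4.19 in Cre minus arrays and 3.94, 3.88 and 3.91 in Cre plus, so it exceeded a log2 value of 4 in 1 array. The other Plat probe set was at 2.40 to 2.42. These 4 genes had 6 probe sets, and with the third one of Hgf 7 of the 15 were not tested. Biliary cells express Spint1, and of the 7 biliary and progenitor markers measured, Sox9 alone was bright enough to be tested, while Krt7, Krt19, Epcam, Cftr, Cldn4 and Muc1 missed the filter. Low values on these arrays do not show that the genes are silent in the regenerating liver.

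The genes around the system were taken in 4 lists, compiled from general knowledge of HGF and plasmin biology with earlier results of these data known. None of their 71 tested entries passed an adjusted p under 0.05. At the unadjusted threshold 6.62% of all genes tested were higher and 8.21% lower, and the median difference was -0.01. Whatever their p-value, 3979 of the 8554 genes tested had higher and 4575 lower values in Cre plus. The first list held the HGF relative Mst1, its receptor Mst1r and 12 proteases of plasma or membrane, several of which can cut HGF or Mst1. Of 11 tested, 9 had lower and 2 higher values, with a median of -0.07, and 1 was lower and 1 higher at the unadjusted threshold.

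The lower one was Klkb1, plasma prekallikrein, a protease zymogen secreted by hepatocytes. It read 9.53, 8.93 and 9.23 in Cre minus arrays and 7.76, 8.45 and 8.10 in Cre plus. Every Cre plus array was below every Cre minus array, as for 11.9% of all genes tested. Among the Cre plus arrays B was again the highest. The difference was -1.13 ± 0.22 (SE), with an unadjusted p = 0.00249 and limma's adjusted p = 0.146. With any single array left out it stayed between -1.30 and -0.96. The higher one was Pcsk5, a proprotein convertase, at 1.03 ± 0.34 (adjusted p = 0.265), with 0.35 on its other kept probe set, and its unadjusted p was under 0.05 in 3 of the 6 fits that leave out an array. F12 (0.01 ± 0.06), Mst1 (-0.05 ± 0.07) and the clotting protease F2 (-0.03 ± 0.06) had small differences, Proc had -0.16 ± 0.09 (-0.11 without Cre plus A) and Tmprss2 -0.23 ± 0.13 (-0.12 with Cre plus B left out and -0.14 with Cre minus A left out). The membrane protease St14, or matriptase, was at 3.24 to 3.35 and was not tested.

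**Figure D3:**
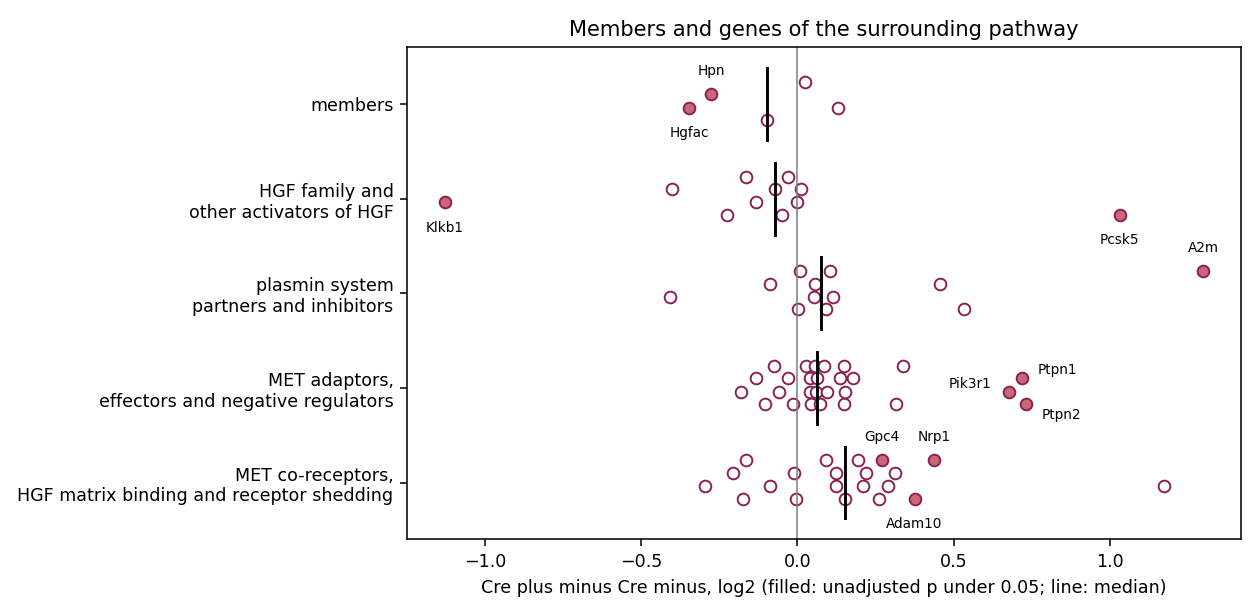
Difference between the groups (x axis, log2) for the 5 tested members and for the tested genes of the 4 surrounding lists, 1 point per gene, filled where limma's unadjusted p is under 0.05, with the median of each list as a black line. Klkb1 at -1.13 lies at the low end, beyond Hgfac and Hpn, and the filled points of the adaptor and co-receptor lists are on the higher side.

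Among partners and inhibitors of plasmin, 10 of 12 tested genes had higher and 2 lower values, with a median of 0.07, and 1 was higher at an unadjusted p under 0.05. That gene was A2m, the broad protease inhibitor alpha-2-macroglobulin, at 1.30 ± 0.17 (SE, adjusted p = 0.0785). It passed at 0.0322 with a stricter filter of a log2 value over 6, under which 56 of 6236 genes tested passed. Plg, the plasminogen that hepatocytes secrete and Plau and Plat activate, had -0.09 ± 0.07. Thbd had 0.53 ± 0.23, the plasma protein Vtn 0.12 ± 0.05 and Igf2r, which can bind the urokinase receptor, -0.41 ± 0.21, none of them called. Igf2r went to -0.17 without Cre minus B and Thbd to 0.32 without Cre plus A.

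The list of MET adaptors, effectors and negative regulators had 20 higher and 7 lower of 27 tested genes, a median of 0.06, and 3 higher genes at the unadjusted threshold. These were the tyrosine phosphatases Ptpn1 and Ptpn2, both able to dephosphorylate MET, and the phosphoinositide 3-kinase subunit Pik3r1. Ptpn2 read 8.34, 8.55 and 8.49 in Cre minus arrays and 9.20, 8.96 and 9.42 in Cre plus. Its groups did not overlap, beside 788 of all 8554 genes tested whose groups were apart and higher in Cre plus. The Ptpn2 difference was 0.73 ± 0.13 (SE) with limma's adjusted p = 0.120. Ptpn1 had 0.72 ± 0.11 (adjusted p = 0.0985, or 0.0464 under the stricter filter) and Pik3r1 0.68 ± 0.23 (adjusted p = 0.279), the last with an unadjusted p under 0.05 in 3 of the 6 fits that leave out an array. The direct MET adaptors Gab1 (0.06 ± 0.22) and Grb2 (0.03 ± 0.07) had differences smaller than their standard errors. The EGFR feedback inhibitor Errfi1 had 0.14 ± 0.06.

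In the list of co-receptors, matrix binding and receptor shedding, 14 of 21 tested genes had higher and 7 lower values, with a median of 0.15, and 3 were higher at the unadjusted threshold. They were the heparan sulfate proteoglycan Gpc4 (0.27 ± 0.08), the co-receptor Nrp1 (0.44 ± 0.13) and the membrane protease Adam10 (0.37 ± 0.15), which sheds MET and other receptors. Their adjusted p-values were 0.216, 0.238 and 0.327. With single arrays left out, Gpc4 and Nrp1 stayed past the unadjusted threshold in 6 of 6 fits and Adam10 in 1 of 6, and Adam10 went to 0.25 without Cre plus A. Vegfa had -0.17 ± 0.07. Timp1, an inhibitor of metalloproteinases and an acute phase gene, had the largest mean difference of the list, 1.17 ± 0.50, but Cre plus B, at 4.78, lay within the Cre minus range of 4.57 to 4.95 while Cre plus A and C were at 6.80 and 6.03 (adjusted p = 0.352). Without Cre plus B the number past the unadjusted threshold went from 3 to 8 in this list (2 of them lower), from 3 to 5 among the adaptors and regulators and from 1 to 2 among the plasmin partners. Over the 4 lists 9 of 71 entries passed the unadjusted threshold with all 6 arrays, beside 14.8% of all genes tested. Without Cre plus B that was 18 of 71 entries, beside the 19.1% of all genes given above. Without Cre plus C the number went from 3 to 5 among the adaptors and from 1 to 3 among the plasmin partners. It went from 2 to 1 in the list of HGF relatives and proteases without Cre plus C or without Cre minus A. Of all 8554 genes, 1105 passed that threshold without Cre plus C and 775 without Cre minus A. Of the 16 genes chosen by smallest p from the 4 lists, 11 have several probe sets that passed the filter, and in 0 of them did these differ in sign.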

How the data were processed

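The log2 values that the authors deposited were made with GCRMA, per the submitters' processing notes, which give no version here. This method corrects background by probe sequence, normalizes by quantiles and gives 1 value per probe set. Dim probe sets are drawn towards a floor, where differences are compressed. Array medians lay between 2.98 and 3.02. Arrays have no read depth, and their number limits the precision.

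The 64 control probe sets were left out. Symbols came from the platform annotation, checked through the Entrez ID against a RefSeq table of GRCm38.p6. Of 45101 probe sets, 34958 named 1 gene, 932 several and 9211 none here, and only the first were named. A probe set was kept if 3 or more of the 6 arrays had a log2 value over 4 (15563 were), and a gene was read from its kept probe set with the highest mean (8554 genes).

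Groups were compared with limma 3.58.1 in R 4.3.3 (lmFit, eBayes, two-sided, no block), with Benjamini-Hochberg adjustment over all genes, or over all kept probe sets where single probe sets are given. Adjusted and unadjusted p-values are limma's unless called exact permutation p-values, and intervals are 95%. The fits were tested on simulated data. Genes named beside the members are Socs3, up to 4 per list with the smallest p and the 3 most alike in profile to each of the 2 members with the smallest p. F12, Mst1, F2, St14, Plg, Gab1, Grb2 and Timp1 were added for their roles or values after their values were seen. The members and lists were chosen with earlier results of these data known. Of the listed genes, 21 were not analysed here. Marker sums use each marker's brightest probe set on the linear scale.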

Additional observations from a re-analysis of the deposited data

How the results depend on the processing

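The number of members past an adjusted p under 0.05 was 0 as reported and under all 15 alternatives, and at an unadjusted p under 0.05 it was 2 as reported. Of all genes tested, 1268 of 8554 passed the unadjusted threshold as reported. The member number was 1 with arrays shifted to a common median (all genes: 1243 of 8554) and 1 with no filter (1319 of 18193). It was 1 with the replicate letter as a block (replicate block, 1095 of 8554) and 0 to 3 with each array left out in turn. Without Cre plus A it was 0 (1011 of 8554). It was 1 without Cre plus C (1105), without Cre minus A (775) or without Cre minus C (855). Without Cre plus B it was 3 (Met, Hgfac and Hpn, 1635 of 8554). Hgfac and Hpn kept their direction under all 15 alternatives. Hgf did so at the gene level, from 0.01 to 0.28 with an array left out, and its 1451866_a_at probe set ran from -0.076 to 0.037. Spint2 took the opposite sign with the mean of its probe sets (-0.020), with _x_at and _s_at probe sets left out (-0.066) and without Cre plus B, with a range of -0.058 to 0.11 over the arrays left out on its brighter probe set and -0.13 to 0.0044 on the other. Met, from -0.21 to 0.0013 over the arrays left out, took it without Cre plus C. Of the genes in the 4 lists, A2m and Ptpn1 passed after adjustment when the filter was raised from 4 to 6. That filter raised the number passing among all genes from 2 of 8554 to 56 of 6236. No pairing of the arrays by the letters A, B and C was seen, with correlations of same-lettered deviations of -0.15, -0.10 and 0.02. With 3 arrays per group these correlations cannot exclude a pairing. The cause of these changes was not tested.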
